A study of Mus musculus with 4 samples.

Results

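The 33 genes described here encode the pyruvate dehydrogenase complex, the enzymes of the tricarboxylic acid (TCA) cycle with assembly factors of succinate dehydrogenase, the aspartate aminotransferases, and enzymes that can refill the cycle. They were chosen by name for their role in these steps, with earlier results of these data known. All 33 were found by Ensembl identifier among the 21552 genes of the count table, and all 33 passed the filter on low counts. Hearts of C57BL/6 mice were compared in 2 groups of 2 mice. In the infarcted group the left anterior descending coronary artery had been tied off permanently, and tissue of the remote area was taken 7 days later. The uninjured mice had no infarct, and their samples carry the same 7-day mark and the same region name. The strain is the same in both groups, and no source used here gives age, sex or a sham operation.

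Pyruvate dehydrogenase turns pyruvate into acetyl-CoA inside mitochondria, and citrate synthase joins acetyl-CoA to oxaloacetate to start the cycle. The dehydrogenases of the cycle then release carbon dioxide and pass electrons to the respiratory chain, through NADH or directly at succinate dehydrogenase, which is also respiratory complex II. Heart muscle is rich in mitochondria and feeds the cycle mainly from fatty acids. Anaplerotic enzymes such as pyruvate carboxylase and the malic enzymes can add cycle intermediates, and the transaminases link the cycle to amino acids and to the malate-aspartate shuttle.

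Library totals ran from 35715115 to 70885393 counts, of which genes of mitochondrial DNA took 36.7% to 48.4%. All 12 cardiomyocyte markers were counted in every library, as the labelled tissue requires. Their summed level was 45250 and 41280 CPM (counts scaled to library size with TMM factors) in infarcted replicates 1 and 2. It was 65330 and 77230 CPM in uninjured replicates 1 and 2. Of these 12 markers 5 were called lower and 0 higher, against 14.6% and 18.3% of all genes tested. Their median log2 fold change was -0.56. The groups overlapped in Mybpc3, Ryr2, Ttn, Actn2 and Csrp3, which stood between -0.23 and 0.17 and were not called. Myh6 and Actc1 lay lower in infarcted hearts without overlap and were not called either. The 7 fibroblast markers summed to 6518 to 8078 CPM in infarcted and 816 to 850 CPM in uninjured hearts, and the 7 macrophage markers to 424 to 445 and 150 to 168 CPM. Infarcted replicate 2 stood apart in atrial markers, whose 5 genes summed to 2009 CPM against 295 CPM in infarcted replicate 1 and 49.5 to 88.8 CPM in uninjured hearts. Nppa alone had 294 CPM of this sum in infarcted replicate 1, and 46.7 to 86.9 CPM in uninjured hearts. Mybphl and Sln had 0 counts in infarcted replicate 1, 1 to 8 counts in uninjured libraries, and 1123 and 1457 counts in infarcted replicate 2. The part of these markers in the results below was not tested. Fewer cardiomyocytes in a sample and less mRNA per cardiomyocyte cannot be told apart in bulk tissue.

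Of the 33 genes 27 were called lower in infarcted hearts and 0 higher by edgeR's quasi-likelihood test (adjusted p below 0.05), whereas 14.6% of all 13905 genes tested were called lower and 18.3% higher. Their median log2 fold change, infarcted over uninjured, was -0.79, against 0.017 over all genes tested. The 6 genes not called were Pdha1, Aco1, Ogdh, Glud1, Pcx and Me2. In 32 of the 33 both infarcted libraries lay below both uninjured ones, an order that held for 33.8% of all genes. The exception was Me2, which lay above, as did 36.2% of all genes. Of all counts outside mitochondrial DNA, the 33 genes together made up 2.01% in infarcted replicate 1 and 1.94% in infarcted replicate 2. Their share was 2.78% in uninjured replicate 1 and 3.09% in uninjured replicate 2.

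**Figure D1:**
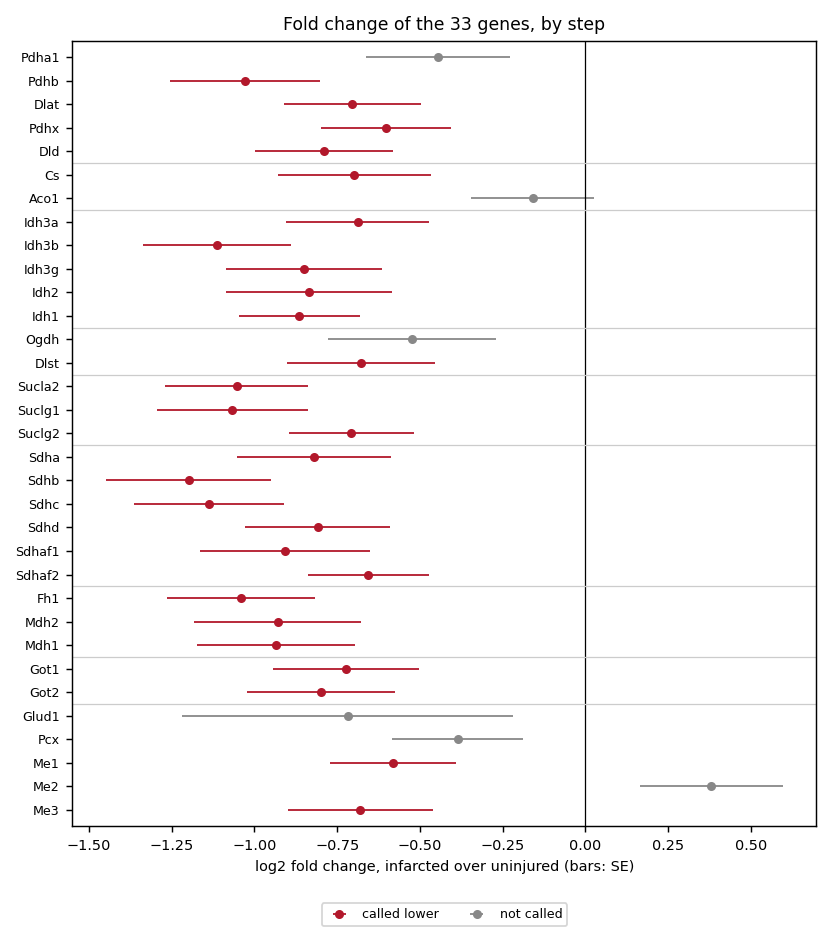
Log2 fold change, infarcted over uninjured (x axis), of each of the 33 genes (y axis, grouped by step of the pathway), with bars for the standard error. The 27 red points were called lower, the 6 grey ones were not called, and only the point of Me2 lies above 0.

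The spread between the uninjured mice was wide for these genes. Uninjured replicate 2 lay above uninjured replicate 1 in 28 of 33 genes, with a median difference of 0.32 on the log2 scale, against 0.050 over all genes. The infarcted mice differed by a median of -0.064, replicate 2 minus replicate 1. Without uninjured replicate 2 edgeR called 0 of the 33, where it called 0.056% of all genes lower, and the median was -0.59. In that fit 26 of the 33 were lower at an unadjusted p below 0.05, against 13.5% of all genes, and DESeq2 called 15 lower, against 4.21% of all genes. Without infarcted replicate 2, the library with atrial markers, edgeR called 9 of the 33 lower, against 8.83% of all genes, with a median of -0.78. Without infarcted replicate 1 it called 18, against 11.5%, and without uninjured replicate 1 it called 27, against 12.7%. DESeq2 called 22, 15 and 27 in those fits (without infarcted replicate 1, infarcted replicate 2 and uninjured replicate 1), against 8.16%, 6.01% and 12% of all genes. With library totals alone as the scale, which moved the median of all genes from 0.017 to 0.36, edgeR called 8 lower and 1, Me2, higher, against 5.65% and 31.5% of all genes. The median of the 33 was then -0.45. The other settings with all 4 libraries called 26 to 29 of the 33 lower. The share of all genes called lower was 15.4% with RLE size factors, 12.7% with no low-count filter, 16.1% with a filter at 1 CPM, 14.9% with DESeq2 and 13.2% with limma-voom. It was 16.8% with a replicate block, 14.4% with the trend with transcript length removed and 14.5% without mitochondrially encoded genes. In all, 8 genes were called lower under each of the 18 settings run except edgeR without uninjured replicate 2. They were Pdhb, Idh1, Idh3b, Sucla2, Suclg1, Sdhb, Sdhc and Fh1.

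**Figure D2:**
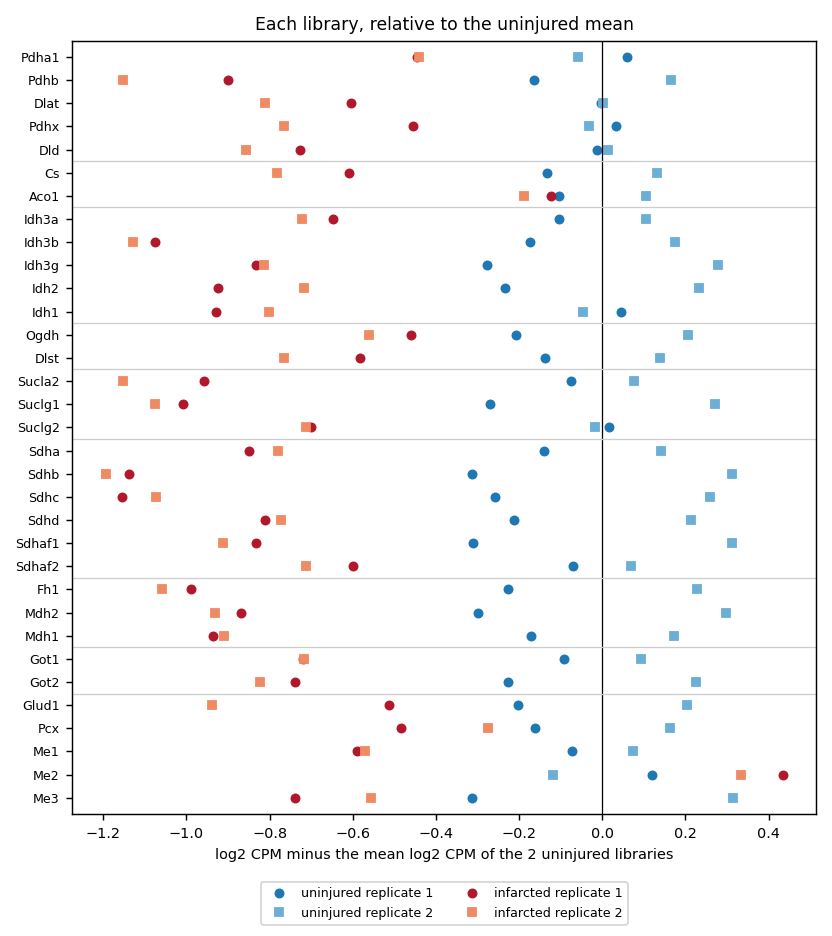
Log2 CPM of each library minus the mean of the 2 uninjured libraries (x axis) for the 33 genes (y axis), with circles for replicate 1 and squares for replicate 2. Infarcted libraries (red and orange) lie to the left of uninjured ones (blue) in every gene except Me2, and the light blue squares of uninjured replicate 2 lie to the right of the dark blue circles in 28 genes.

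In the pyruvate dehydrogenase complex 4 of 5 genes fell (median log2 fold change -0.70). Pdhb, the beta subunit of the pyruvate-decarboxylating component, had 279 and 234 CPM in infarcted replicates 1 and 2 and 464 and 583 CPM in uninjured replicates 1 and 2. It fell by 1.03 ± 0.23 (log2 ± SE, edgeR adjusted p = 0.00406), with no overlap between the groups. Its partner, the alpha subunit Pdha1, had 545 and 548 CPM in infarcted and 774 and 714 CPM in uninjured hearts. The Pdha1 groups did not overlap either, but the gene was not called, at -0.44 ± 0.22 (adjusted p = 0.137). DESeq2 called Pdha1 lower, at -0.46 (adjusted p = 0.0416). Dlat, the acetyltransferase core that carries the lipoyl arms, went from 348 ± 0.813 to 214 ± 21.4 CPM (SD, n = 2 per group) and fell by 0.70 ± 0.21. Dld, the dihydrolipoyl dehydrogenase that this complex shares with the 2-oxoglutarate dehydrogenase complex, went from 413 ± 5.09 to 239 ± 15.4 CPM and fell by 0.79 ± 0.21. In Dlat and Dld the uninjured mice were nearly level, unlike in most of the 33 genes. Pdhx, which anchors Dld to the core, fell by 0.60 ± 0.20 and lost its call without uninjured replicate 1, at -0.58 (adjusted p = 0.0897). Without infarcted replicate 2 Pdhb was the only gene of the complex that edgeR called, with Dld at -0.75, Dlat at -0.63 and Pdhx at -0.48, and DESeq2 also called Dld (adjusted p = 0.0491). In the annotation 603 exon bases of Pdha1 overlap Map3k15 on the opposite strand.

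Citrate synthase (Cs), which makes the first intermediate of the cycle, had 713 and 633 CPM in infarcted replicates 1 and 2. In uninjured replicates 1 and 2 it had 992 and 1192 CPM. It fell by 0.70 ± 0.23 (edgeR adjusted p = 0.0332), and leaving out either infarcted library ended the call. It stood at a larger -0.86 (adjusted p = 0.0756; DESeq2 0.0217) without infarcted replicate 1 and at -0.64 (adjusted p = 0.220) without infarcted replicate 2. Aco1, the cytosolic aconitase that doubles as an iron-sensing RNA-binding protein, was low and nearly level, at 32.6 and 31.2 CPM in infarcted and 33.1 and 38.2 CPM in uninjured hearts. It was not called, at -0.16 ± 0.19 (adjusted p = 0.545), and stood at 0.19 with library totals as the scale.

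All 5 isocitrate dehydrogenase genes fell, with a median of -0.85. Idh3a, Idh3b and Idh3g encode the NAD-linked enzyme of the cycle. Idh3b had 295 and 284 CPM in infarcted replicates 1 and 2 and 551 and 701 CPM in uninjured replicates 1 and 2. It fell by 1.11 ± 0.22 (edgeR adjusted p = 0.00254), and by 0.94 (adjusted p = 0.0588) without uninjured replicate 2. The catalytic subunit Idh3a went from 554 ± 56.7 to 344 ± 12.8 CPM (SD, n = 2) and fell by 0.69 ± 0.22, and Idh3g went from 472 ± 127 to 262 ± 2.51 CPM and fell by 0.85 ± 0.24. Idh3a was not called without infarcted replicate 1, at -0.80 (adjusted p = 0.0805), nor without infarcted replicate 2, at -0.67 (adjusted p = 0.163), and DESeq2 called it in the first of these fits (adjusted p = 0.0342). Idh3g was not called without infarcted replicate 2, at -0.88 (adjusted p = 0.0524), where DESeq2 called it (adjusted p = 0.0412). Idh2, the NADP-linked enzyme of the mitochondrial matrix, was at 877 and 1012 CPM in infarcted and 1415 and 1956 CPM in uninjured hearts. It fell by 0.84 ± 0.25. The call ended without infarcted replicate 1, at -0.81 (adjusted p = 0.113), and without infarcted replicate 2, at a larger -0.96 (adjusted p = 0.0568). Idh1, the cytosolic counterpart, was far less abundant, at 27.0 and 29.5 CPM in infarcted and 53.1 and 49.8 CPM in uninjured hearts. Idh1 fell by 0.86 ± 0.18 (adjusted p = 0.00332), and here uninjured replicate 2 was the lower of the uninjured mice.

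Of the genes particular to the 2-oxoglutarate dehydrogenase complex, the succinyltransferase Dlst fell and the dehydrogenase Ogdh was not called by edgeR. DESeq2 called Ogdh lower, at -0.54 (adjusted p = 0.0321). Ogdh had the most reads of the 33, with 1892 and 1765 CPM in infarcted replicates 1 and 2. Its uninjured values lay far apart, at 2256 and 3004 CPM. Its log2 fold change was -0.52 ± 0.25 (edgeR adjusted p = 0.132), with -0.72 (adjusted p = 0.0458) when uninjured replicate 1 was left out and -0.31 (adjusted p = 0.301) when uninjured replicate 2 was left out. Dlst went from 645 ± 87.1 to 403 ± 36.3 CPM (SD, n = 2) and fell by 0.68 ± 0.22. The call ended without infarcted replicate 1, at a larger -0.85 (adjusted p = 0.0668; DESeq2 0.0258), and without infarcted replicate 2, at -0.61 (adjusted p = 0.219).

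Succinyl-CoA synthetase pairs the alpha subunit Suclg1 with either of 2 beta subunits, Sucla2 for the ADP-linked and Suclg2 for the GDP-linked enzyme. All 3 genes fell. Sucla2 had 272 and 238 CPM in infarcted replicates 1 and 2 and 502 and 558 CPM in uninjured replicates 1 and 2. It fell by 1.05 ± 0.22 (edgeR adjusted p = 0.00282). Suclg1 had 149 and 142 CPM against 249 and 362 CPM and fell by 1.07 ± 0.23 (adjusted p = 0.00347). The replicates of Suclg2 were close, at 97.1 and 96.2 CPM in infarcted and 160 and 156 CPM in uninjured hearts, and it fell by 0.71 ± 0.19. Suclg2 was not called without infarcted replicate 1, at -0.79 (adjusted p = 0.0509; DESeq2 0.0377), or without infarcted replicate 2, at -0.73 (adjusted p = 0.0856), so its fold was no smaller there. Sucla2 and Suclg1 were called in both fits.

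All 6 genes of succinate dehydrogenase and its assembly fell (median log2 fold change -0.86). The promoters of the subunit genes are shown because these genes, which build a single complex, were lower together. RefSeq windows on build GRCm38.p6, from 250 bases before to 50 bases after a start site, were found for Sdha (chr13:74350191-74350490, minus strand), Sdhb (chr4:140961021-140961320, plus strand) and Sdhd (chr9:50603800-50604099, minus strand). No window was found for the subunit gene Sdhc. Each window found is written 5′ to 3′ with motif matches in capitals. The letters searched on both strands were GCGCA and GCGC with any 1 base between them (the core of the NRF1 motif), CCGGAAG (the core of the ETS family motif, which GABPA shares) and AAGGTCA (the nuclear receptor half-site that estrogen-related receptors use).
Sdha: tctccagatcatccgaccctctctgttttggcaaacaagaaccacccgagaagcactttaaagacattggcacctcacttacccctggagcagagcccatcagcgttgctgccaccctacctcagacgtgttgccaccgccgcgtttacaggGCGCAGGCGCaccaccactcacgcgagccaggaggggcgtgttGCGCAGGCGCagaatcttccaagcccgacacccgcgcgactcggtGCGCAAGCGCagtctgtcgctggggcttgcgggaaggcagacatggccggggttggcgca
Sdhb: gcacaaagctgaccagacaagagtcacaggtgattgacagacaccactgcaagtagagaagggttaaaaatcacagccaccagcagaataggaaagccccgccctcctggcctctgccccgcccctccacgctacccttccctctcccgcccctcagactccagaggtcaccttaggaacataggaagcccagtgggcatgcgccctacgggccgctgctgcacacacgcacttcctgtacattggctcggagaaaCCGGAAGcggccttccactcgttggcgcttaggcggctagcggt
Sdhd: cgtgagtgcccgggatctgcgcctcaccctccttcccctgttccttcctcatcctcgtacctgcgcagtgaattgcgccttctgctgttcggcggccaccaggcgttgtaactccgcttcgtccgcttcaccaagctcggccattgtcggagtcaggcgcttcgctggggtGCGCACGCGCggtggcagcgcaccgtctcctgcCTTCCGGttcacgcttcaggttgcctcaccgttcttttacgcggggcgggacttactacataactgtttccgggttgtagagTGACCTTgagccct
The Sdha window held 3 matches to the NRF1 core, the Sdhb window 1 match to the ETS core, and the Sdhd window 1 match to each of the 3 motifs, none of them overlapping. Among the 38 windows found for 30 of the 33 genes, 4 held the NRF1 core, 8 the ETS core and 3 the half-site. Those are 10.5%, 21.1% and 7.89% of the windows, against 4.60%, 8.86% and 4.72% of all 32851 promoter windows of this length. A match describes letters only.

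Sdhb, the iron-sulfur subunit, had 330 and 318 CPM in infarcted replicates 1 and 2 and 585 and 902 CPM in uninjured replicates 1 and 2. It fell by 1.20 ± 0.25 (edgeR adjusted p = 0.00300), and by 0.86 (adjusted p = 0.0621) without uninjured replicate 2, whose value was far above that of its group mate. Sdhc, a membrane anchor, had 143 and 151 CPM against 265 and 380 CPM and fell by 1.14 ± 0.23 (adjusted p = 0.00238). Sdha, the flavoprotein that oxidizes succinate, went from 1307 ± 180 to 740 ± 25.2 CPM (SD, n = 2) and fell by 0.82 ± 0.23. The other anchor, Sdhd, went from 334 ± 69.3 to 191 ± 3.61 CPM and fell by 0.81 ± 0.22, and with the trend of each library with transcript length removed it was not called, at -0.45 (adjusted p = 0.0693). Sdhaf2, which helps to attach the flavin to Sdha, fell by 0.66 ± 0.18, from 51.6 ± 3.53 to 32.8 ± 1.80 CPM. Sdhaf1, a maturation factor for the iron-sulfur subunit, was at 4.68 and 4.43 CPM in infarcted and 6.72 and 10.4 CPM in uninjured hearts and fell by 0.91 ± 0.26. In the annotation 1733 exon bases of Sdhaf1 overlap E130208F15Rik on the opposite strand, and whether reads of the latter were counted with its own is not known. Sdha was not called by edgeR without infarcted replicate 1, at -0.86 (adjusted p = 0.0812), or without infarcted replicate 2, at -0.88 (adjusted p = 0.0798), and DESeq2 called it in both fits (adjusted p = 0.0227 and 0.0209). Of the 6 genes edgeR called Sdhb and Sdhc alone without infarcted replicate 2, where Sdhd stood at -0.85, Sdhaf1 at -0.89 and Sdhaf2 at -0.63, close to their values with all libraries.

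The enzymes from fumarate to oxaloacetate and the malate-aspartate shuttle fell in both compartments. Fumarase (Fh1) had 190 and 181 CPM in infarcted replicates 1 and 2. It had 323 and 442 CPM in uninjured replicates 1 and 2, and fell by 1.04 ± 0.22 (edgeR adjusted p = 0.00366). Mitochondrial malate dehydrogenase (Mdh2) had 621 and 594 CPM against 921 and 1393 CPM and fell by 0.93 ± 0.25. Its cytosolic counterpart in the shuttle, Mdh1, had 852 and 868 CPM against 1448 and 1836 CPM and also fell by 0.93, ± 0.24. The cytosolic aspartate aminotransferase Got1 had 476 and 477 CPM in infarcted and 736 and 837 CPM in uninjured hearts, and fell by 0.72 ± 0.22 (adjusted p = 0.0232). The mitochondrial form Got2 fell by 0.80 ± 0.22, from 371 ± 81.6 to 213 ± 8.82 CPM (SD, n = 2). In all 5 genes the infarcted mice were close to each other and uninjured replicate 2 was the highest library. In the annotation Got2 shares 434 exon bases with Gm45760 and Mdh1 shares 52 with Wdpcp, both on the opposite strand, and Got2 has a processed pseudogene, Got2-ps1. Got1 was not called without infarcted replicate 1, at -0.80 (adjusted p = 0.0949; DESeq2 0.0342). Without infarcted replicate 2 edgeR called Fh1 alone among the 5, with Mdh1 at -0.97, Mdh2 at -0.92, Got1 at -0.75 and Got2 at -0.78, close to their values with all libraries. DESeq2 also called Mdh1 and Mdh2 there (adjusted p = 0.0104 and 0.0334).

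Of the 5 genes grouped here as anaplerotic 2 fell and 3 were not called, with a median of -0.58. Me1, the cytosolic malic enzyme that makes NADPH, had 94.2 and 95.4 CPM in infarcted replicates 1 and 2 and 135 and 149 CPM in uninjured replicates 1 and 2. It fell by 0.58 ± 0.19 (edgeR adjusted p = 0.0315). Me3, a mitochondrial NADP-linked malic enzyme, had 41.5 and 47.1 CPM against 55.7 and 86.1 CPM and fell by 0.68 ± 0.22 (adjusted p = 0.0312), or by 0.34 (adjusted p = 0.223) without uninjured replicate 2. Me1 and Me3 were not called without infarcted replicate 1, at -0.65 and -0.67 (adjusted p = 0.118 and 0.0956), nor Me1 without infarcted replicate 2, at -0.62 (adjusted p = 0.154), so the folds were about as large. With limma-voom the call of Me3 ended as well (adjusted p = 0.0549). In the annotation 569 exon bases of Me3 overlap the antisense gene A230065N10Rik.

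Me2, the NAD-linked malic enzyme of mitochondria, was the only one of the 33 that lay higher in both infarcted mice, at 11.1 and 10.4 CPM against 8.96 and 7.60 CPM. It was not called, at 0.38 ± 0.22 (edgeR adjusted p = 0.196), except with library totals as the scale, at 0.73 (adjusted p = 0.0197). Pyruvate carboxylase (Pcx), which makes oxaloacetate from pyruvate, had 24.3 and 28.1 CPM against 30.4 and 38.1 CPM and was not called, at -0.39 ± 0.20 (adjusted p = 0.155). Glutamate dehydrogenase (Glud1) was nearly uncounted, with 16 and 10 reads in the infarcted mice and 19 and 33 reads in the uninjured mice. Its value of -0.72 ± 0.50 (adjusted p = 0.294) rests on these few reads. How reads that map to more than 1 place were treated is not stated, and its part in the low Glud1 counts was not tested.

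Levels were also compared per length of transcript. They are given as mean CPM per kilobase of the longest annotated transcript in uninjured hearts. Idh2 was highest at 942 ± 214 (SD, n = 2), followed by Mdh1 at 774 ± 129, Mdh2 at 720 ± 208, Ogdh at 637 ± 128 and Sdhb at 604 ± 182. Neighbours among these 5 did not differ beyond the spread between mice. Sdha at 451 ± 62.2, Got1 at 382 ± 34.9 and Cs at 364 ± 47.1 came next. Got1 and Cs lay within that spread of each other, and Sdha stood above Got1 by more than the SD of either. The 3 subunits of the NAD-linked isocitrate dehydrogenase were Idh3b at 305 ± 51.8, Idh3g at 227 ± 60.9 and Idh3a at 215 ± 22.0. Idh3g and Idh3a lay within that spread of each other, and Idh3b stood above both by more than any of these SDs. In pyruvate dehydrogenase, Pdha1 at 261 ± 15.1 and Pdhb at 220 ± 35.3 stood above Dld at 162 ± 2.00, Dlat at 86.3 ± 0.202 and Pdhx at 51.7 ± 1.64. Anaplerotic genes were at the low end, with Me1 at 43.1 ± 3.08, Me3 at 15.8 ± 4.80, Pcx at 8.26 ± 1.30 and Me2 at 2.46 ± 0.286. Genes of other steps were as low, with Idh1 at 22.4 ± 1.01, Sdhaf2 at 13.2 ± 0.901, Aco1 at 9.29 ± 0.947 and Sdhaf1 at 3.43 ± 1.03. Glud1, with its few reads, stood at 0.136. In infarcted hearts Idh2 was still highest, at 528 ± 53.4, with Ogdh second at 443 ± 21.7 and Mdh1 next at 405 ± 5.45.

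**Figure D3:**
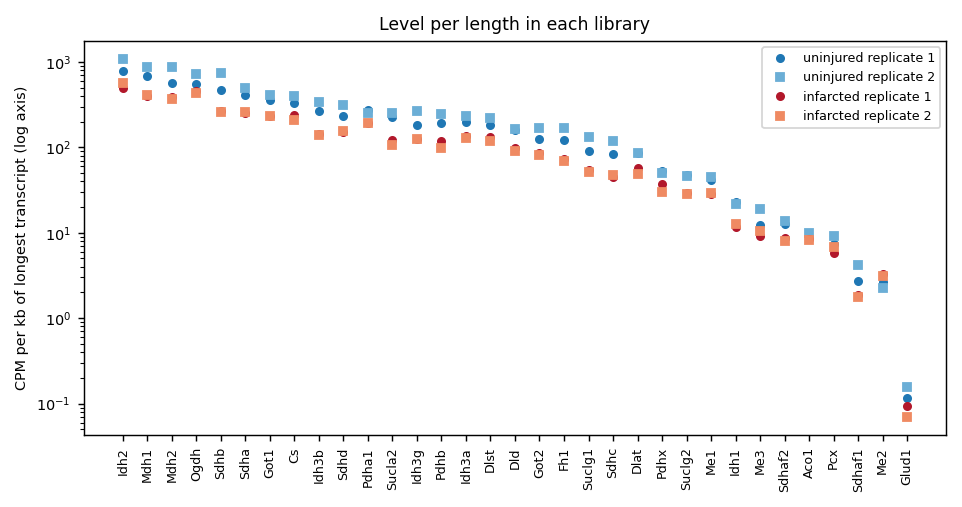
Level of each of the 33 genes in each library, in CPM per kilobase of the longest annotated transcript (y axis, log scale), ordered by the uninjured mean from Idh2 on the left to Glud1 on the right. Infarcted values (red and orange) lie below uninjured ones (blue) at high and low levels alike, except in Me2.

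Ratios of 2 genes within a library, which do not depend on how libraries are scaled, were taken for 7 pairs of isoenzymes or partners. With 2 mice against 2 the exact two-sided permutation test cannot go below 0.3333, so no pair could pass. The ratios of cytosolic to mitochondrial isoenzymes overlapped between the groups. The count ratio Mdh1/Mdh2, replicate 1 before replicate 2, was 1.37 and 1.46 in infarcted against 1.57 and 1.32 in uninjured hearts. Got1/Got2 was 2.17 and 2.31 against 2.35 and 1.96, Idh1/Idh2 was 0.0308 and 0.0292 against 0.0376 and 0.0255, and Me1/Me3 was 2.27 and 2.03 against 2.42 and 1.73. The log2 ratio differed, infarcted minus uninjured, by -0.024 for Mdh1/Mdh2, 0.062 for Got1/Got2, -0.045 for Idh1/Idh2 and 0.068 for Me1/Me3 (exact p = 1 for each). In 3 pairs both infarcted mice lay above both uninjured ones. Suclg2/Sucla2, the GDP-linked over the ADP-linked beta subunit, was 0.357 and 0.404 in infarcted and 0.318 and 0.280 in uninjured hearts, a log2 difference of 0.35, or 0.20 with the trend with transcript length removed. Aco1/Cs was 0.0457 and 0.0493 against 0.0333 and 0.0320, a log2 difference of 0.54. Pdhx/Dlat was 0.413 and 0.384 against 0.381 and 0.364, a log2 difference of 0.096 (exact p = 0.3333 for each of the 3, 0.778 adjusted over 7 pairs). The Pdhx/Dlat difference was 0.26 with the length trend removed, 0.044 without infarcted replicate 1, 0.149 without infarcted replicate 2 and 0.062 without uninjured replicate 2.

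**Figure D4:**
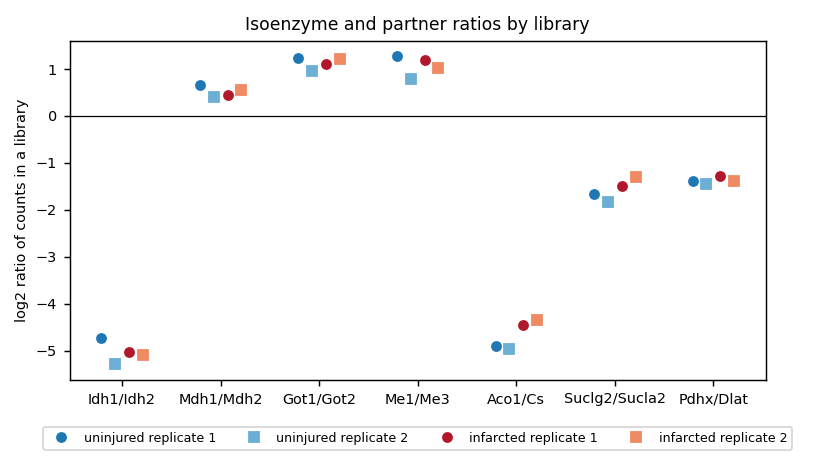
Log2 ratio of the counts of 2 genes within each library (y axis) for 7 pairs (x axis), with circles for replicate 1 and squares for replicate 2. The infarcted points (red and orange) fall between or among the uninjured ones (blue) in the first 4 pairs and above them in Aco1/Cs, Suclg2/Sucla2 and Pdhx/Dlat.

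Other genes of the pathway were read from a list. Of these 40 regulators, cofactor genes, carriers and neighbouring enzymes, 23 were called lower and 2 higher by edgeR, with a median log2 fold change of -0.78, beside the same 14.6% and 18.3% of all genes. The edgeR calls in this list ended without uninjured replicate 2, where the median of these 40 was -0.67 with edgeR and -0.69 with DESeq2. Of the 2 phosphatases that switch pyruvate dehydrogenase on, Pdp2 had 6.56 and 4.94 CPM in infarcted replicates 1 and 2 and 23.4 and 17.3 CPM in uninjured replicates 1 and 2. It fell by 1.82 ± 0.24 (adjusted p = 0.000166), more than any of the 33 genes. Pdp1 fell by 0.69 ± 0.19 and their regulatory subunit Pdpr was not called, at -0.036 ± 0.23. The kinases that switch the complex off were mixed. Pdk2 fell by 1.07 ± 0.23, from 470 ± 107 to 223 ± 14.9 CPM (SD, n = 2), while Pdk3, at 4.18 and 5.39 CPM against 1.57 and 1.31 CPM, rose by 1.74 ± 0.30 (adjusted p = 0.00101). Pdk1 and Pdk4 were not called, at -0.27 ± 0.19 and 0.25 ± 0.34. Pdk4 had 433 CPM in infarcted replicate 2 and 196 to 267 CPM in the other libraries.

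Both genes of the mitochondrial pyruvate carrier fell, Mpc2 by 1.33 ± 0.23 and Mpc1 by 0.91 ± 0.22. So did the alanine aminotransferases Gpt2, by 1.55 ± 0.21, and Gpt, by 1.34 ± 0.23. The route by which propionyl-CoA enters as succinyl-CoA fell in all 4 genes, with Mcee by 1.37 ± 0.21, Pcca by 0.86 ± 0.19, Pccb by 0.84 ± 0.20 and Mut by 0.63 ± 0.20. Among carriers, the oxoglutarate carrier Slc25a11 fell by 1.07 ± 0.22, the glutamate carrier Slc25a22 by 1.07 ± 0.20, and the aspartate-glutamate carriers Slc25a12 and Slc25a13 by 0.67 ± 0.20 and 0.80 ± 0.20. Slc25a1 and Slc25a10, which carry citrate and dicarboxylates, were not called, at 0.30 ± 0.25 and -0.058 ± 0.23. The lipoyl transfer genes Lipt1 and Lipt2 fell by 0.77 ± 0.24 and 0.99 ± 0.30, and the lipoate synthase Lias was not called, at -0.51 ± 0.19 (edgeR adjusted p = 0.0535). The further complex II assembly factors Sdhaf3 and Sdhaf4 fell by 0.96 ± 0.25 and 1.15 ± 0.22. D2hgdh, a 2-hydroxyglutarate dehydrogenase, fell by 0.90 ± 0.20, and Ogdhl, a relative of Ogdh, fell by 0.94 ± 0.23. ATP-citrate lyase (Acly), which takes citrate back to acetyl-CoA in the cytosol, had 42.8 and 42.3 CPM in infarcted and 27.4 and 29.1 CPM in uninjured hearts and rose by 0.59 ± 0.18 (adjusted p = 0.0241). Its call ended when any of the 4 libraries was left out. Acly stood at 0.63 without uninjured replicate 2, where the other edgeR calls of the list ended too. The transhydrogenase Nnt, the mitochondrial acetyl-CoA synthetase Acss1 and glutamine synthetase (Glul) were among the 15 genes of the list that were not called, at -0.72 ± 0.29, -0.58 ± 0.22 and 0.58 ± 0.27. Glul had 627 CPM in infarcted replicate 2 and 321 to 341 CPM in the other libraries. It stood at 0.052 without that library and was called higher without infarcted replicate 1, at 0.88 (adjusted p = 0.0342). Dhtkd1 was not called, at -0.52 ± 0.31.

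**Figure D5:**
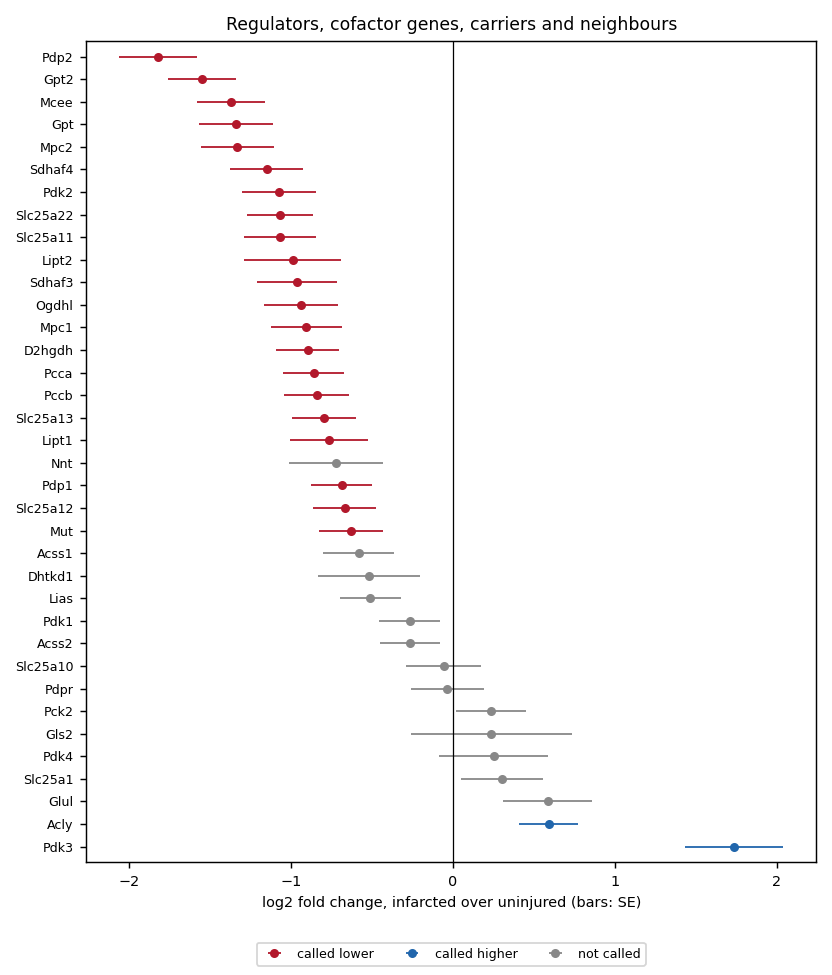
Log2 fold change, infarcted over uninjured (x axis), with standard error bars for other pathway genes (y axis), ordered by value. Pck1 is left out because of its wide error, and a few genes of the list are not shown. Red points were called lower, from Pdp2 to Mut except for the grey point of Nnt between them. Blue ones (Acly and Pdk3) were called higher, and grey ones were not called.

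Splicing of these genes was read from the percent inclusion of exons and percent use of splice sites in the same libraries. Of 219 listed events in 30 of the 33 genes, 44 in 18 genes had enough reads of both forms to be tested, 28 exons and 16 splice sites. In 39 of the 44 the percent was above 95 or below 5 in every library. None of the 44 was called by edgeR at an adjusted p below 0.05, where it called 0% of all 5490 exons and 0.0341% of all 2936 splice sites tested. Nor was any event of these genes called by limma on the logit or under the other settings, which called 0 to 8 of all events. At an unadjusted p below 0.05 there were 4 events, against 6.52% of all 8426 events. A 171-base exon of Idh3b (mm9, chr2:130105292-130105462) was included in 6.02% and 9.39% of reads in infarcted replicates 1 and 2, over 352 and 262 reads. In uninjured replicates 1 and 2 it was included in 3.76% and 2.21%, over 634 and 1410 reads. The Idh3b groups did not overlap, and the difference of 4.72 points had an edgeR adjusted p of 0.692. Use of an alternative 5′ splice site of Dlst (mm9, event at chr12:86460183-86460291) was 2.11% and 1.74% against 4.88% and 4.52%, also without overlap (adjusted p = 0.845). The other 4 of the 6 events with the smallest p, in Sucla2, Suclg1, Got1 and Sdhc, were exons included in 99.4% to 100% of reads in every library.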

How the data were processed

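Polyadenylated RNA from heart tissue was sequenced as single-end reads of 50 bp on an Illumina GAII, per the labels' protocols. The authors deposited raw counts per Ensembl gene, and percent inclusion of exons or percent use of splice sites, each with corrected reads of both forms. The build is mm9, per the submitters' processing notes; the aligner, the counter and any strand setting were not given in the sources used here. Whether reads of genes that overlap on opposite strands were counted apart is therefore not known. Symbols came from GENCODE M21 by Ensembl identifier (20450 of 21552 genes matched), as did transcript lengths and overlaps.

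Counts were tested in edgeR 4.0.16 (TMM, filterByExpr, robust quasi-likelihood F-test, R 4.3.3) on the whole table, with Benjamini-Hochberg adjusted p below 0.05 as a call. SE is the absolute log2 fold change over the square root of F, and 2 residual degrees of freedom remain. The groups have 2 mice each. Settings tried were other scaling and filters, DESeq2 1.42.0, limma-voom (limma 3.58.1), a replicate block, removal of the trend with longest transcript length (loess, span 0.5), leaving out mitochondrially encoded genes, and each library left out, the last also with DESeq2, chosen after seeing the data. Ratios used counts plus 0.5. Splicing events needed 10 reads in each library and 5 of each form; of sites with 2 forms, which mirror each other, 1 was kept. Fits were tested on simulated data. With 200 changed genes in simulated counts, the edgeR fit recovered 70% of 2-fold and 100% of 4-fold changes. The named genes are all 33 members, the called genes of the pathway list with up to 6 others of smallest p, and the 6 events of smallest p. A few genes of the pathway list are counted but not reported here by name. Further pathway genes (Pdpr, Pdk1, Pdk4, Slc25a1, Slc25a10) were chosen after their values were seen. Members and lists were chosen with earlier results of these data known.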

Additional observations from a re-analysis of the deposited data

How the results depend on the processing

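With library totals alone as the scale, 8 of the 33 genes were called lower (27 with TMM) and 1 higher, with a median of -0.45, 14 and 4 of the 40 pathway genes, and 786 and 4386 of all genes. Aco1 was then at 0.19 (not called). Over the fits that left out 1 library, edgeR called 0 to 27 of the 33 genes lower and 0 higher, with medians of -0.91 to -0.59, 0 to 22 pathway genes lower and 0 to 2 higher, and 8 to 1824 of all genes lower and 102 to 2144 higher, the lowest each time without uninjured replicate 2. DESeq2 in the same fits called 15 to 27 of the 33 lower, with medians of -0.94 to -0.61, 1 to 2 pathway genes higher, and, without infarcted replicate 1, infarcted replicate 2, uninjured replicate 1 and uninjured replicate 2, 1170, 851, 1721 and 602 of all genes lower and 1360, 1303, 1823 and 1157 higher. The cause was not tested. Log2 ratio differences over those fits ran from -0.32 to 0.23 for Idh1/Idh2, -0.15 to 0.10 for Mdh1/Mdh2, -0.072 to 0.19 for Got1/Got2 and -0.17 to 0.31 for Me1/Me3, so their signs turned. They ran from 0.48 to 0.59 for Aco1/Cs, 0.26 to 0.44 for Suclg2/Sucla2 and 0.044 to 0.15 for Pdhx/Dlat. With the trend with transcript length removed, 26 of the 33 were called lower (median -0.71). Over the 33 genes the fold change had a Spearman correlation of 0.661 with transcript length and -0.542 with the difference between the uninjured mice, which shares uninjured libraries with it. With the replicate number as a block, edgeR called 27 of the 33 lower and 0 higher, and 2340 of all genes lower and 2950 higher. The differences between mice within the 2 groups, replicate 2 minus 1, correlated at 0.108 over 13905 genes, and 2 pairs cannot show that the numbers pair mice. No splicing event of these genes was called under any setting, with 1 to 4 at an unadjusted p below 0.05 in edgeR. Glud1 rests on 10 to 33 counts per library.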
